A study of Homo sapiens with 12 samples.

Results

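The 6 neutrophil-attracting CXCL chemokine genes of chromosome band 4q13, CXCL8, CXCL6, CXCL1, CXCL5, CXCL3 and CXCL2, were taken by symbol from a gene count table of 58721 genes, and their transcripts were followed in 12 libraries from 2 Ewing sarcoma cell lines, EW8 and TC71. Cells of this tumour carry EWS-FLI1 or a related fusion transcription factor. Both lines had been transduced with lentivirus for a doxycycline-inducible (TRE3G promoter) cassette, in which c-Jun and c-Fos are joined by a self-cleaving peptide, and for the Tet-On 3G transactivator, and selected with geneticin and puromycin. Cells received either 2000 ng/ml doxycycline (genotype label AP1_overexpression) or DMSO vehicle (genotype label WT) for 72 h, with 3 libraries in each of the 4 groups. The vehicle cells therefore carried the same cassette as the induced cells. No library came from doxycycline-treated cells without the transgenes, so what doxycycline did alone and what the induced proteins did cannot be told apart. The sources used here do not say that the 3 libraries of a group came from separate cultures, and the p-values measure only the spread between these libraries.

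These chemokines carry a Glu-Leu-Arg (ELR) motif before the CXC cysteines, bind the receptor CXCR2, some of them also CXCR1, and draw neutrophils into inflamed tissue. Their genes are textbook rapid-response targets of interleukin 1 and TNF, with NF-kB as the main activator and AP-1 (dimers of Jun and Fos proteins) and C/EBP factors as partners. Their mRNAs hold AU-rich elements and are short-lived until decay factors such as tristetraprolin (ZFP36) are held back.

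The libraries held 42860665 to 60853649 assigned counts. Each mate of a read pair was counted on its own, so 3 read pairs give 6 counts, and 6 counts in a library was taken as the floor under which a gene was not called present (0.0966 to 0.145 CPM, the usual scaling of counts to library size). The cassette was induced as labelled: JUN was at 19.8 to 24.6 CPM in EW8 vehicle libraries and 422 to 504 CPM with doxycycline, and at means of 20.7 and 756 CPM in TC71. FOS went from 35.9 to 37.6 CPM up to 998.7 to 1139 CPM in EW8, and from 11.2 to 12.1 CPM up to 1450 to 1686 CPM in TC71. Reads of the cassette and of the endogenous JUN and FOS genes cannot be told apart. The 8 Ewing sarcoma markers were above the floor in every group. Their summed level was 2950 to 2990 CPM with vehicle and 2720 to 2800 CPM with doxycycline in EW8, and 2500 to 2760 and 2340 to 2410 CPM in TC71, without overlap in either line. Called lower were LOXHD1 in both lines (137.9 to 52.8 CPM in EW8 and 40.9 to 12.2 CPM in TC71, adjusted p = 8.48e-09 and 7.73e-10) and KCNAB3 in TC71 (13.1 to 4.84 CPM, adjusted p = 6.02e-08). The lower sum does not hold for each marker. Mean CD99 rose from 806.6 to 1243 CPM in EW8 and from 558.4 to 759.6 CPM in TC71. Mean NR0B1 was also higher in both lines, and 0 markers were called higher. The means of CCND1, PRKCB, STEAP1, NKX2-2, LOXHD1 and KCNAB3 were lower in both lines. CCND1 went from 1420 to 975.2 CPM in EW8 and from 1425 to 1114 CPM in TC71. Vehicle replicate 1 of TC71 stood apart from its 2 partners in counts over all genes, and leaving it out changed no call of a chemokine gene.

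The promoters of CXCL8, CXCL2, CXCL1 and CXCL5 are shown because they span the range of the levels described next, from the highest transcript to the one that stayed at the floor. Each line gives the 170 bases before the RefSeq transcription start (GRCh38.p14), 5′ to 3′ on the gene's strand, at chr4:73740399-73740568 (plus) for CXCL8, chr4:74099196-74099365 (minus) for CXCL2, chr4:73869223-73869392 (plus) for CXCL1 and chr4:73998678-73998847 (minus) for CXCL5. Capitals mark matches on either strand to an AP-1 motif (TGACTCA) or an NF-kB motif (GGNNTTTCC).
CXCL8: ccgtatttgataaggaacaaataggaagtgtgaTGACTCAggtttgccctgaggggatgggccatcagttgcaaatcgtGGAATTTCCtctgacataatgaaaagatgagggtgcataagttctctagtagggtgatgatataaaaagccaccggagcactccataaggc
CXCL2: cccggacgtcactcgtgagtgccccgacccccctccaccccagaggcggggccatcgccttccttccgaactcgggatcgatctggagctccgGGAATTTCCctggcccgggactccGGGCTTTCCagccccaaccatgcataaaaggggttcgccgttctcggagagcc
CXCL1: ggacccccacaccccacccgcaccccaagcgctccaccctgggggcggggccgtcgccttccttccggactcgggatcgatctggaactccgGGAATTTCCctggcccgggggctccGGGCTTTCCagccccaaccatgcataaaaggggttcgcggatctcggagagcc
CXCL5: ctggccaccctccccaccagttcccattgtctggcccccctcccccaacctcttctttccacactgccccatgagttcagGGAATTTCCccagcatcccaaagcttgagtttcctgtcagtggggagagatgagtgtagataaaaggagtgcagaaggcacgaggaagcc
In the 250 bases before the start, the NF-kB letters were found in 6 of 6 chemokine promoters, against 5.48% of 35116 promoters of the same length in the RefSeq table. CXCL1, CXCL2 and CXCL3 each held 2 matches, GGAATTTCC and GGGCTTTCC, with first bases 77 or 78 and 53 bases upstream, while CXCL5, CXCL6 and CXCL8 held the first of these alone, 89 to 91 bases upstream. The AP-1 letters were found in 1 of 6, in CXCL8 at 137 bases upstream (4.2% of all promoters), and a C/EBP motif (TTGCNNAA) in 1 of 6, in CXCL2 at 188 bases upstream (9.05%). Stretches 1 base off a motif were not counted. An example is ttgcaaat shortly before the NF-kB match of CXCL8, which misses the C/EBP letters in its last base. The CRE motif TGACGTCA was found in 0 of 6 (1.65%). The shared NF-kB match thus lies in the promoters of the most abundant and of the least abundant member alike, and these are matches of letters within this window only.

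CXCL8, encoding interleukin 8, was the dominant chemokine transcript of induced EW8 cells. Its counts were 0, 2 and 0 in the vehicle libraries, against 41845, 45037 and 33937 with doxycycline, or 749, 890 and 775 CPM. Every doxycycline library lay far above every vehicle library, and CXCL8 took rank 121 of 58721 genes by mean CPM and rank 81 by CPM per kilobase of exon. Against the floor of the vehicle libraries, the mean of 805 CPM was at least 5950-fold higher (adjusted p = 1.81e-18, edgeR quasi-likelihood test with Benjamini-Hochberg adjustment over 21013 genes, as for all adjusted p-values here unless another tool is named).

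CXCL2, CXCL3 and CXCL1, the closely related ligands also known as the GRO chemokines, were likewise at or under the floor in EW8 vehicle libraries and present in all 3 doxycycline libraries. CXCL2 was at 0, 0 and 0 counts in vehicle and at 4702, 5061 and 3446 counts with doxycycline, a mean of 87.6 CPM and at least 648-fold higher (adjusted p = 1.55e-13). CXCL3 was at 0, 2 and 0 counts and at 784, 1020 and 721 counts, a mean of 16.9 CPM and at least 125-fold higher (adjusted p = 1.87e-10). CXCL1 was at 0, 0 and 0 counts and at 146, 148 and 138 counts, a mean of 2.90 CPM and at least 21.4-fold higher (adjusted p = 1.09e-06). The groups did not overlap for any of these 3 genes, as for 26.9% of all genes tested with doxycycline the higher.

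CXCL6 and CXCL5, which encode a further pair of closely related ELR ligands, were at the low end. CXCL6 was at 0 counts in the 3 vehicle libraries and at 20, 19 and 12 counts with doxycycline, a mean of 0.336 CPM and at least 2.48-fold higher (adjusted p = 0.0015). That gene had too few counts to be tested when all counts were halved to allow for mates counted separately. CXCL5 was at 0, 0 and 0 counts in vehicle and 4, 0 and 0 with doxycycline, never passed 4 counts in any of the 12 libraries, and failed the filter on low counts. In EW8, 5 of 6 members were thus called higher and 0 lower, where a call needs an adjusted p under 0.05 and a fitted log2 fold change beyond 1 in size. Over all genes tested, 11.4% were called higher and 3.38% lower in this comparison. CXCL1, CXCL2, CXCL3 and CXCL6 passed the filter on low counts through the induced EW8 libraries alone, so for them a difference between groups is fixed by that filter and the count lends no support.

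**Figure D1:**
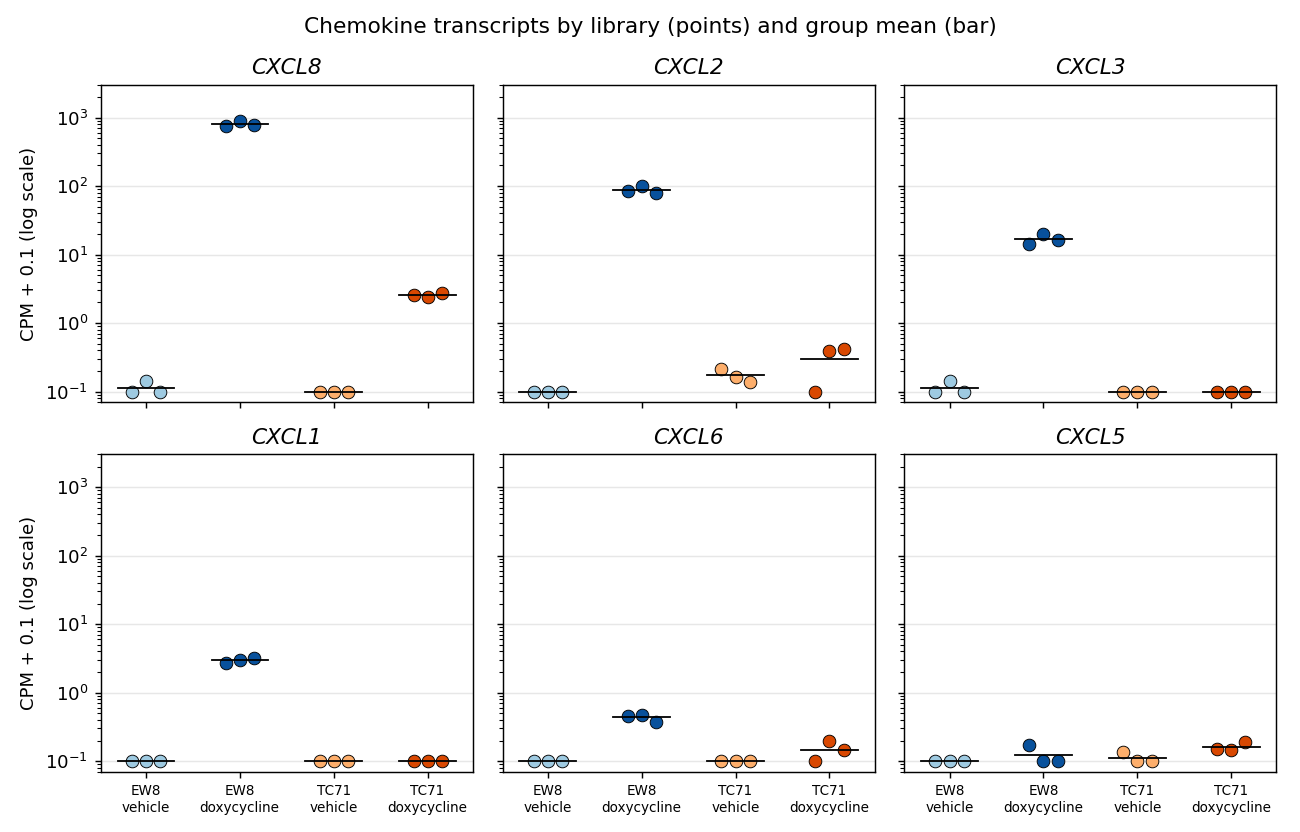
CPM + 0.1 on a log axis for each of the 6 chemokine genes, with 1 point per library and a bar at the mean of the 3 libraries of a group. In EW8 with doxycycline CXCL8 sits between 749 and 890 CPM and CXCL2 between 78.7 and 100 CPM, while in TC71 with doxycycline CXCL8 sits between 2.29 and 2.69 CPM and CXCL1 and CXCL3 are at 0.

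In induced EW8 cells CXCL8 gave most of the chemokine counts. CXCL8 made up 88.1% of the counts on the 6 genes in replicate 1, 87.8% in replicate 2 and 88.7% in replicate 3 (95% Wilson intervals 87.8 to 88.4%, 87.5 to 88.1% and 88.4 to 89%, counting error only, and too narrow because both mates of a pair were counted). The intervals of replicates 2 and 3 did not overlap. CXCL2 made up 9.9%, 9.87% and 9.01%. Per length of exon, the order of the levels was CXCL8 (329 to 391 CPM per kilobase), CXCL2 (52.5 to 66.7), CXCL3 (6.32 to 9.08), CXCL1 (2.02 to 2.43), CXCL6 (0.126 to 0.172) and CXCL5 (0 to 0.0282), and no neighbours in that order overlapped. On this per-length scale CXCL8 held 83.3 to 84.5% and CXCL2 13 to 14.2% of the sum. The annotated exons of CXCL3 merge into 1 block of 2219 bases, its whole span, against 4 blocks with 1296 bases in CXCL1. Intron sequence inside such a block would add to the exon length and lower the per-length level, which was not tested. Together the 6 genes took 0.0837 to 0.1% of all counts of an induced EW8 library.

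The close similarity of the GRO genes bears on these levels, since reads that fit several genomic places were not counted. Windows of 100 bases were taken within each merged exon block, so none spans a splice junction. Of these windows, 79 of 1302 in CXCL2 (6.07%) and 79 of 2120 in CXCL3 (3.73%) had a second identical copy in hg38, and 0 in the other 4 members. Windows with a copy within the cluster at up to 2 mismatches made up 15.7% of CXCL2, 5.75% of CXCL3 and 8.33% of CXCL1 and none of the other 3. CXCL6 overlaps the pseudogene PPBPP1, and the counting was not strand-specific. The levels of CXCL2 and CXCL3 are therefore somewhat uncertain relative to CXCL8.

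In TC71 the same induction left the family near the floor, with CXCL8 as the 1 member called higher. In the vehicle libraries CXCL8 had 0, 0 and 0 counts, against 102, 96 and 118 after induction, or 2.47, 2.29 and 2.69 CPM. The groups did not overlap (27.6% of all genes tested had groups apart with doxycycline the higher), and the mean of 2.48 CPM was at least 21.3-fold higher (adjusted p = 2.77e-11). Over all genes tested, 12.3% were called higher and 3.67% lower in TC71.

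CXCL1 and CXCL3 had 0 counts in all 6 TC71 libraries, which allows up to 6 counts a library at this depth. CXCL2 was at 6, 4 and 2 counts with vehicle and at 0, 12 and 14 with doxycycline, so the groups overlapped, and the fitted log2 fold change of 1.47 did not pass (adjusted p = 0.106). Without doxycycline replicate 1 it passed (2.03, adjusted p = 0.00256), as it did with no filter on low counts (1.45, adjusted p = 0.00914). CXCL6 was at 0, 4 and 2 counts and CXCL5 at 2, 2 and 4 counts with doxycycline, all at or under the floor (CXCL6 adjusted p = 0.0534, CXCL5 not tested). Without doxycycline replicate 1, edgeR also called CXCL6 higher in TC71, and no fold is given for it because both groups were at the floor.

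Set directly against each other with doxycycline, 5 members were called lower in TC71 and 18.4% of all genes tested were called lower. That direction was fixed by the filter for the 4 members that passed it through induced EW8 alone. CXCL5, which failed the filter, was at 4, 0 and 0 counts in EW8 and 2, 2 and 4 counts in TC71. These values come from the same induced libraries as those above and are not independent of them. CXCL8 was 324-fold higher in EW8 than in TC71 (log2 difference, TC71 minus EW8, -8.34, SE 0.11, adjusted p = 1.08e-17), and CXCL2 434-fold higher (-8.73, SE 0.29, adjusted p = 2.19e-13). CXCL3 was at least 116-fold higher (adjusted p = 9.26e-11), CXCL1 at least 19.9-fold higher (adjusted p = 6.01e-07) and CXCL6 at least 2.31-fold higher (adjusted p = 0.0257) in EW8. The CXCL6 call was lost without EW8 doxycycline replicate 1, 2 or 3 (adjusted p = 0.0774, 0.0795 and 0.0546) and without TC71 doxycycline replicate 1 or 3 (adjusted p = 0.115 and 0.0951). JUN and FOS went the other way, at 1.6-fold and 1.47-fold higher levels in induced TC71 than in induced EW8 (log2 differences 0.67, adjusted p = 1.62e-05, and 0.55, adjusted p = 2.03e-07), which did not reach the fold limit.

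Whether the response itself differed between lines was tested as an interaction of line and treatment. The edgeR interaction called CXCL2 alone (adjusted p = 2.41e-05), where 2.87% of all genes were called lower. Its fitted difference for CXCL8 was -5.66 with an SE of 47.8, and the SEs of CXCL1, CXCL3 and CXCL6 were larger still, so that fit says nothing about these 4 genes. DESeq2 called 4 members, CXCL8, CXCL1, CXCL2 and CXCL3, where it called 3.6% of all genes lower. A limma-trend fit on log2 CPM with a prior count of 2, added after the data were seen, called the 5 members tested, where it called 3.79% of all genes lower. CXCL1, CXCL2, CXCL3 and CXCL6 passed the filter through induced EW8 alone, so their direction was fixed by it in each of these fits. Both vehicle groups were at the floor, so the sizes in the limma-trend fit depend on the prior count. For CXCL1 and CXCL3, at 0 in TC71, those sizes equal the EW8 response. In that fit the response of CXCL8 was smaller in TC71 by a log2 difference of -7.97 (SE 0.42, adjusted p = 3.54e-09), of CXCL2 by -10.44 (SE 0.9, adjusted p = 8.8e-07), of CXCL3 by -8.33 (SE 0.6, adjusted p = 1.36e-07), of CXCL1 by -6.17 (SE 0.57, adjusted p = 1.67e-06) and of CXCL6 by -2.26 (SE 0.7, adjusted p = 0.0332). Under vehicle, edgeR called CXCL2 higher in TC71 (adjusted p = 0.0303; 11.6% of all genes were called higher), but its 2 to 6 counts were at the floor, and the call was lost without EW8 vehicle replicate 1, 2 or 3.

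The receptor side of the family was nearly silent. CXCR1, the scavenger receptor gene ACKR1, and the platelet chemokine genes PPBP, PF4 and PF4V1 of the same cluster had 0 counts in all 12 libraries. CXCR2, the shared receptor of all 6 ligands, was at 4, 2 and 0 counts in EW8 vehicle libraries and at 44, 44 and 34 with doxycycline. That is a mean of 0.811 CPM, at least 5.99-fold higher (adjusted p = 0.00194). The groups did not overlap, as for 26.9% of all genes tested with doxycycline the higher. CXCR2 passed the filter on low counts through induced EW8 alone, so this difference is fixed by that filter and lends no support. In TC71, CXCR2 never passed 2 counts in a library.

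Of 8 CXC chemokine genes outside the ELR group, 5 could be tested, and in EW8 2 were called higher and 1 lower. Among all genes tested, 11.4% were called higher and 3.38% lower in EW8. CXCL10, an interferon-inducible ligand for T cells, rose 11.4-fold (0.403 to 4.60 CPM, adjusted p = 3.74e-06), and CXCL11, its close relative, rose 3.13-fold (0.902 to 2.83 CPM, adjusted p = 0.00242). CXCL12, a homeostatic chemokine that guides stem cells and lymphocytes, fell by 2.69 on the log2 scale (1.39 to 0.215 CPM, adjusted p = 2.21e-05). In TC71 CXCL12 was at 2.24 and 1.64 CPM (adjusted p = 0.293), and its response differed from that in EW8 (interaction 2.23, adjusted p = 0.00468). CXCL11 was called lower in TC71 (adjusted p = 0.0301) from 0.178 to 0.0463 CPM, under the floor, and that call was lost without vehicle replicate 2 (adjusted p = 0.09) and without doxycycline replicate 1 or 2 (adjusted p = 0.11 and 0.0702).

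Several of the cytokines that classically switch these chemokines on also rose. Of 30 inducing cytokines, receptors and adaptors, 23 could be tested, and 12 were called higher and 1 lower in EW8 against 11 and 1 in TC71, with median log2 fold changes of 1.17 and 1.74 beside -0.03 and 0 over all genes. The shares of all genes tested called higher and lower were 11.4% and 3.38% in EW8, and 12.3% and 3.67% in TC71. Mean TNF, a gene chosen after its values were seen, went from 1.43 to 6.08 CPM in EW8 and from 0.169 to 0.175 CPM in TC71. Other cytokines of the list were absent, with no counts of IL17A, IL17C or IL36A in any library and OSM under the floor throughout. IL1A, encoding interleukin 1 alpha, rose from 0.135 to 0.701 CPM in EW8 vehicle libraries to 216 to 257 CPM, a 641-fold change of the means (log2 fold change 9.23, adjusted p = 2.44e-16). Without vehicle replicate 3, the highest of the vehicle libraries, the log2 fold change was 10.22 and the interaction -4.22. In TC71 IL1A rose 68.6-fold (0.125 to 8.55 CPM, adjusted p = 3.82e-12), and the response was smaller there (interaction -3.18, SE 0.68, adjusted p = 0.00261). IL1B, a gene chosen after its values were seen, rose 187-fold in EW8, from a mean of 4.51 to 841 CPM (adjusted p = 3.13e-17). In TC71 it rose from under the floor to 1.14 CPM, at least 9.78-fold (adjusted p = 1.82e-07), and induced EW8 held 738-fold more of it than induced TC71, although the edgeR interaction did not pass (-2.13, adjusted p = 0.322).

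IL1R1, the signalling receptor of interleukin 1, followed the same order. In EW8 it rose 363-fold (0.135 to 48.9 CPM, adjusted p = 2.31e-14), and TC71 showed a rise of at least 4.6-fold (0 to 0.536 CPM, adjusted p = 1.92e-07). IL1RN, the natural antagonist of that receptor, rose to 0.881 CPM in EW8 and 0.632 CPM in TC71, at least 6.51-fold and 5.43-fold (adjusted p = 1.38e-05 and 1.92e-05). IL36G, an epithelial cytokine of the interleukin 1 family, rose in EW8 to 1.15 CPM (at least 8.49-fold, adjusted p = 4.6e-05) and was at the floor in TC71. IL36G passed the filter on low counts through induced EW8 alone, so its difference is fixed by that filter. IL1RAP, the co-receptor, had log2 fold changes of -1.04 in EW8 and -1.07 in TC71 (adjusted p = 9.2e-10 and 5.03e-10), close to the fold limit of 1. The EW8 value was -0.95 without vehicle replicate 3, -0.98 without doxycycline replicate 1 or 2, and -0.99 without TC71 vehicle replicate 1 or 3, inside that limit.

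Part of the inducer list responded more in TC71. The interaction called 4 of its genes higher in TC71 and 2 lower, all but IL1A named here after their values were seen. That test called 4.18% of all genes higher and 2.87% lower. Higher were the interleukin 17 receptor subunit gene IL17RC (1.19, adjusted p = 0.000121), the oncostatin M receptor gene OSMR (1.41, adjusted p = 2.66e-09), the Toll-like receptor gene TLR2 (3.22, adjusted p = 0.000508) and the TNF receptor gene TNFRSF1B, which was at the floor in TC71 vehicle libraries. Lower were IL1A and the interleukin 17 adaptor gene TRAF3IP2 (-1.06, adjusted p = 0.00189).

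Of 22 transcription factor and NF-kB pathway genes, 15 were called higher and 0 lower in EW8, and 8 higher and 2 lower in TC71, with median log2 fold changes of 1.92 and 0.49. Of all genes tested, 11.4% were called higher and 3.38% lower in EW8, and 12.3% and 3.67% in TC71. Both JUN and FOS are on this list, and their reads include those of the cassette. The interaction called 12 lower in TC71 and 1, FOS, higher, where 2.87% of all genes were called lower and 4.18% higher. NFKBIA, the NF-kB inhibitor that NF-kB itself induces, rose 5.11-fold in EW8 (38.8 to 198.6 CPM, adjusted p = 3.5e-13) and was at 49.3 and 35.3 CPM in TC71, a log2 difference of -0.48 (interaction -2.83, adjusted p = 2.91e-11). TNFAIP3, which encodes the feedback inhibitor A20, rose 10.5-fold in EW8 (4.27 to 44.8 CPM, adjusted p = 2.2e-13) and was at 12.5 and 14.9 CPM in TC71 (adjusted p = 0.0891, interaction -3.13, adjusted p = 4.43e-10). NFKBIZ, a nuclear NF-kB cofactor, rose 26.8-fold in EW8 and 4.94-fold in TC71 (interaction -2.42, adjusted p = 1.89e-06). These 3 genes were chosen after their values were seen.

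Of the other AP-1 genes, FOSL1 and FOSL2 rose strongly in both lines. FOSL1 rose 117-fold in EW8 and 46.5-fold in TC71, to 98.7 and 82.4 CPM (adjusted p = 1.66e-16 and 3.69e-16). FOSL2 rose 49.8-fold and 8.77-fold, to 112 and 134 CPM (adjusted p = 1.7e-16 and 2.4e-14). Between induced libraries of the lines these 2 genes differed by log2 -0.26 and 0.25, beside -8.34 for CXCL8. EGR1, an immediate early factor, rose 2.89-fold in EW8 (adjusted p = 6.71e-06) and fell by 1.38 on the log2 scale in TC71 (adjusted p = 1.32e-05). CEBPA, a myeloid and hepatic C/EBP factor, was called lower in TC71 (log2 -1.24, adjusted p = 1.52e-05) and was at -0.52 in EW8 (adjusted p = 0.0132). Mean CEBPB, a gene chosen after its values were seen, went from 89.3 to 58.4 CPM in EW8 and from 25.8 to 26.9 CPM in TC71. It was not called lower in either line.

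**Figure D2:**
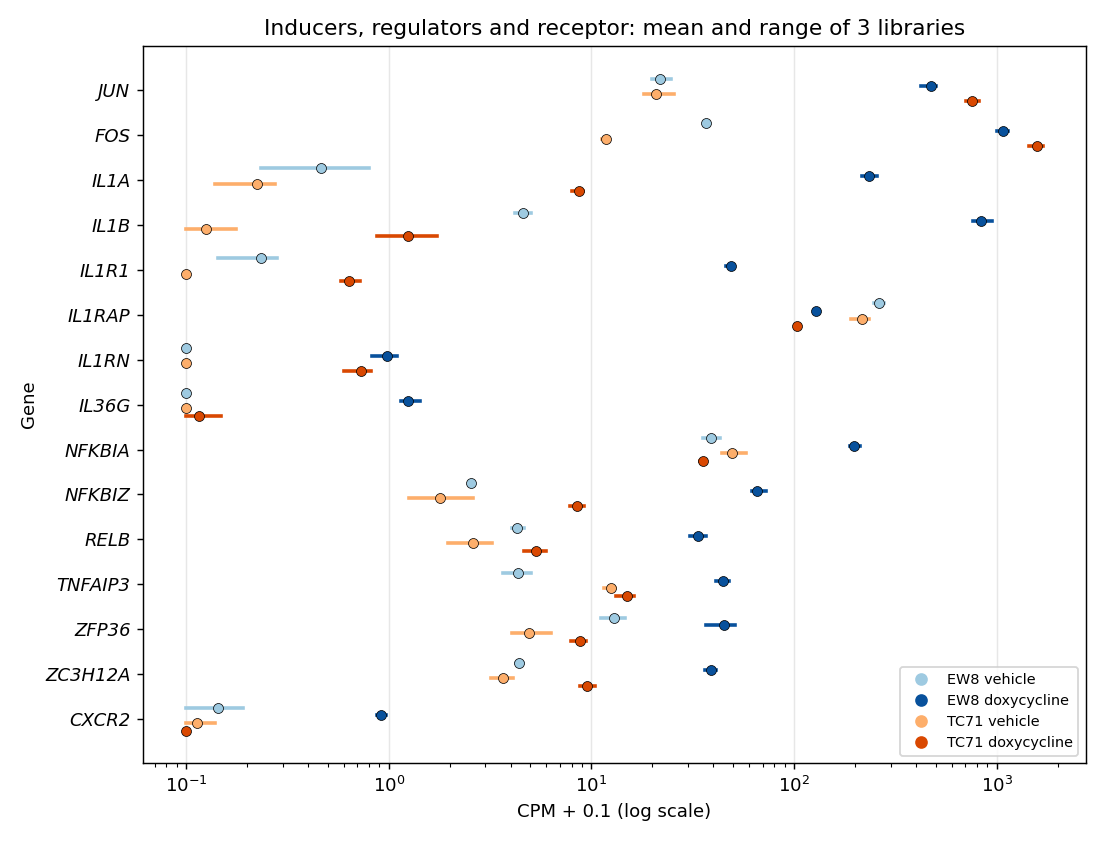
Mean (point) and lowest to highest library (line) of CPM + 0.1 on a log axis for JUN, FOS, interleukin 1 genes, NF-kB pathway genes, mRNA decay factors and CXCR2, with 3 libraries per group. JUN and FOS are highest in TC71 with doxycycline (means 756 and 1580 CPM), whereas IL1A, IL1B, IL1R1, NFKBIA and TNFAIP3 are highest in EW8 with doxycycline.

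Among 13 genes that control the decay of AU-rich mRNAs, 3 were called higher in EW8 and 2 in TC71, and 0 lower in either. The shares of all genes tested called higher were 11.4% in EW8 and 12.3% in TC71. With list medians of 0 and 0.13 on the log2 scale, the list as a whole did not shift. ZC3H12A, which encodes the RNase Regnase-1, rose 9-fold in EW8 and 2.64-fold in TC71 (adjusted p = 2.65e-13 and 2.61e-08). ZFP36L1, a relative of tristetraprolin, rose 3.63-fold and 4.58-fold (adjusted p = 1.88e-13 and 2.02e-14). ZFP36 rose 3.54-fold in EW8 (adjusted p = 2.23e-08) and had a log2 fold change of 0.85 in TC71 (adjusted p = 0.00038), under the fold limit.

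Along chromosome 4 the 6 genes span 359 kb (hg38, GENCODE annotation), from CXCL8 at chr4:73740506-73743716 (plus strand) through CXCL6 at chr4:73836497-73849064 (plus), CXCL1 at chr4:73869393-73871242 (plus), CXCL5 at chr4:73995642-73998779 (minus) and CXCL3 at chr4:74036589-74038807 (minus) to CXCL2 at chr4:74097035-74099293 (minus). The strongest members, CXCL8 and CXCL2, lie at opposite ends, with the silent PF4V1, PF4, PPBP and CXCL5 between them. Of 12 other protein-coding genes within 500 kb of the span, 6 could be tested, of which 5 were called higher in EW8 and 3 in TC71. The shares over all genes tested were 11.4% and 12.3%. The calls of AFP and AFM among them rest on few counts.

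EREG and AREG, which encode the EGF receptor ligands epiregulin and amphiregulin, lie 625 and 705 kb from the CXCL8 start. In EW8 EREG rose at least 32.2-fold to 4.36 CPM (adjusted p = 4e-08), and in TC71 at least 3.82-fold to 0.445 CPM (adjusted p = 1.3e-05). AREG rose 23.9-fold to 5.17 CPM in EW8 (adjusted p = 7.02e-07) and, in TC71, at least 58.9-fold to 6.86 CPM (adjusted p = 1.51e-08). Between the induced lines AREG differed by log2 0.41 (SE 0.38, adjusted p = 0.368). MTHFD2L, a mitochondrial folate enzyme gene next to CXCL2, rose 3.59-fold in EW8 (adjusted p = 4.37e-08) and was at 9.95 and 7.71 CPM in TC71 (interaction -2.21, adjusted p = 1.54e-06). AFP and AFM, of the albumin family, were also called higher in EW8, with at most 20 and 8 counts in a library, and AFP in TC71 with at most 24. The AFM call in EW8 was lost without vehicle replicate 1, 2 or 3 (adjusted p = 0.0733, 0.0741 and 0.0839) or doxycycline replicate 2 (0.206). The AFP call in TC71 was lost without vehicle replicate 1 or 2 (adjusted p = 0.0766 and 0.103) or doxycycline replicate 3 (0.274).

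**Figure D3:**
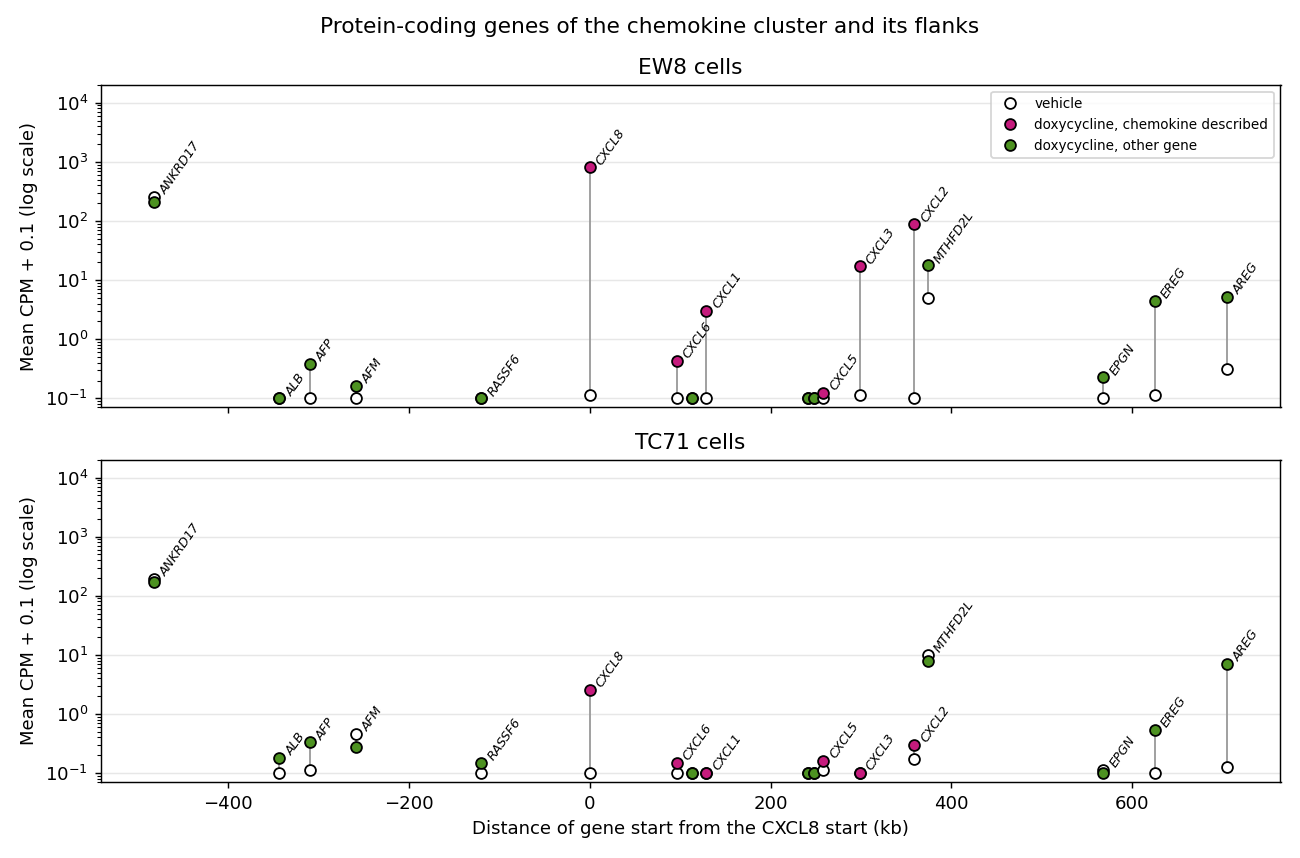
Mean CPM + 0.1 on a log axis (3 libraries per group) of the protein-coding genes of the chemokine cluster and 500 kb on either side, against the distance of each gene's start from the CXCL8 start in kb, with open points for vehicle and filled points for doxycycline. In EW8 CXCL8 (805 CPM) and CXCL2 (87.6 CPM) rise at the 2 ends of a 359 kb span, and in TC71 AREG (6.86 CPM) is above CXCL8 (2.48 CPM).

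Over the 12 libraries, the genes with the pattern most like the mean of the 5 tested chemokines (each scaled on log2 CPM, 16275 genes ranked) were CRLF2, SIGLEC11, EGFLAM-AS2, LPXN and SERPINA1, with Pearson r of 0.9941 to 0.9839 as a description. The 12 points fall into an induced EW8 group and the rest. These genes were picked for that pattern, so their rise in EW8 is fixed by the choice. Their p-values in EW8 lend no support. All but LPXN also passed the filter on low counts through induced EW8 alone. LPXN, which encodes the focal adhesion protein leupaxin, rose 40.3-fold in EW8 (1.41 to 56.7 CPM, adjusted p = 4.92e-15) and 2.32-fold in TC71 (adjusted p = 3.55e-06). SERPINA1, the gene for alpha-1 antitrypsin, an inhibitor of neutrophil elastase, rose in EW8 from 0 to 2.18 CPM, at least 16.1-fold (adjusted p = 1.35e-05). CRLF2, SIGLEC11 and EGFLAM-AS2 reached 1.46, 1.40 and 1.30 CPM in induced EW8, and the last is an antisense gene whose reads an unstranded count cannot separate from its partner.

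Markers of blood cells were checked in the same libraries. In EW8, 7 of 14 leukocyte markers were at or under the floor with vehicle and 8 with doxycycline, and their summed level was 65.9 to 73.5 and 78.2 to 82.1 CPM. In TC71 13 and 10 of 14 were at or under the floor, and the sum was 0.175 to 0.496 and 0.819 to 1.15 CPM. Nearly all of the EW8 sum was PTPRC (CD45), at means of 65.9 CPM before and 74.9 CPM after induction (log2 difference 0.19, adjusted p = 0.192). The granulocyte markers FCGR3B and S100A8 were at 0 in all 6 EW8 libraries. ITGAM was called higher in both lines (2.02 and 0.438 CPM with doxycycline, adjusted p = 0.000418 and 0.0032), and the part of such cells in the chemokine result was not tested.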

How the data were processed

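Total RNA of 12 libraries (2 lines, vehicle or doxycycline, 3 each) was sequenced in pairs. Per the submitters' processing notes, the file header and the study's methods, the authors aligned reads with STAR to hg38 and deposited raw counts per gene from featureCounts v2.0.1 with GENCODE 29, with no option for pairs, strand, multi-mapping or overlapping reads, so each mate counts once and reads with several places or genes are lost. The deposited table also gives each gene's exon length, used for CPM per kilobase. Genes passing filterByExpr (21013, holding 99.95% of counts) were fitted in one edgeR 4.0.16 quasi-likelihood model of 4 groups with TMM (R 4.3.3), with Benjamini-Hochberg adjustment. CPM used TMM-scaled totals. Calls needed an adjusted p under 0.05 and a log2 fold change beyond 1. Folds against a group at the floor (6 counts in each library) are bounds. DESeq2 1.42.0 and limma 3.58.1 were alternatives. Symbols matched 58207 of 58721 identifiers.

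The chemokine genes and all gene lists were chosen with earlier results of these data known. Named genes were the 6 chemokines, JUN, FOS, receptors and cluster chemokines, up to 4 genes a direction from each other list with the largest fold among those called, called protein-coding genes within 500 kb, and the 5 genes most like the family. Other genes are marked as chosen after their values were seen. The replicate numbers did not pair the samples (correlations of deviations -0.03 to 0.02). Promoters came from RefSeq.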

Additional observations from a re-analysis of the deposited data

Results flagged for a closer look

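A test of the difference in response passed for 26 named genes (5 chemokines and 21 others with no group at the floor). Values are log2 responses to doxycycline in TC71 minus those in EW8. CXCL1, CXCL2, CXCL3 and CXCL6 passed the filter on low counts through induced EW8 alone. Their direction was thus fixed by that filter and lends no support. For CXCL1 and CXCL3, at 0 in TC71, the difference equals the EW8 response. For the chemokines, in the limma-trend fit, the differences were -7.97 for CXCL8, -10.44 for CXCL2, -8.33 for CXCL3, -6.17 for CXCL1 and -2.26 for CXCL6. CXCL6 rested on at most 20 counts in a library, and the sizes depend on the prior count because both vehicle groups were at the floor.

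For the other genes the edgeR interaction passed at an adjusted p under 0.05, with 14 responses lower in TC71 and 7 higher. Many of these genes were named for large folds or after their values were seen, so this balance is not a result. With the fold limit of 1, 4.18% of all genes tested were called higher and 2.87% lower. The number of all genes called with no fold limit is given in the next section. Lower were LPXN by -4.1, IL1A by -3.18, TNFAIP3 by -3.13, EGR1 by -2.91, NFKBIA by -2.83, FOSL2 by -2.5, NFKBIZ by -2.42, MTHFD2L by -2.21, ZC3H12A by -1.78, FOSL1 by -1.31, TRAF3IP2 by -1.06, ZFP36 by -0.97, CEBPA by -0.73 and KCNAB3, an Ewing sarcoma marker, by -0.61. Higher were TLR2 by 3.22, CXCL12 by 2.23, FOS by 2.21, OSMR by 1.41, IL17RC by 1.19, JUN by 0.73 and ZFP36L1 by 0.33. The interaction also passed for TNFRSF1B (4.29), AREG (3.45), CXCL11 (-3.52) and AFM (-5.73), each with a group at the floor and left out of these counts. CEBPA no longer passed without EW8 vehicle replicate 1 or 2, EW8 doxycycline replicate 3, TC71 vehicle replicate 2 or TC71 doxycycline replicate 1 or 2 (adjusted p = 0.0511 to 0.127). ZFP36L1 no longer passed without EW8 vehicle replicate 2 or 3, any EW8 doxycycline library, TC71 vehicle replicate 1 or 3 or TC71 doxycycline replicate 2 (adjusted p = 0.052 to 0.309). KCNAB3 no longer passed without EW8 vehicle replicate 1 or TC71 doxycycline replicate 2 (adjusted p = 0.0529 and 0.0768). Groups of 3 libraries are too small for a test of single outlying libraries.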

How the results depend on the processing

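No value reversed its direction under any alternative run. In EW8 the number of chemokine genes called stayed at 5 with other scalings, DESeq2, no filter, each line fitted alone, the limma-trend fit, and without any single library. With counts halved it was 4, since CXCL6 could not be tested. Asking for 10 or more counts in each library left no chemokine gene to test and 1600 (EW8), 1909 (TC71), 966 (interaction), 3566 (lines under vehicle) and 3464 (lines with doxycycline) genes called over the table. With no fold limit these counts were 9216, 9578, 4057, 12974 and 13135. In TC71 against vehicle, 2 chemokine genes were called with no filter, and 1 to 3 over the fits that left out a library; CXCL2 had 1.45 with no filter and 0.97 to 2.03 without single libraries. For the interaction, 4 were called by DESeq2 and 5 by limma-trend. Between lines under vehicle, 0 were called by limma-trend and 0 to 1 without single libraries. CXCL6 between lines with doxycycline was -2.78 with no filter (adjusted p = 0.099), -2.86 in DESeq2 (adjusted p = 0.0627) and -3.72 to -2.22 without single libraries, where 5 of the 12 fits lost the call. A fit with the replicate number as a block called 5 chemokine genes in EW8 and 1 in TC71, as without it, and 3018 and 3236 genes over the table, and lost the calls of AFM in EW8 and AFP in TC71. Members with 0 to 6 counts in a library are limited by depth.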
